A study of Saccharomyces cerevisiae with 8 samples.

Results

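The 37 genes described here encode the cytosolic translation factors of budding yeast: 26 initiation factor genes, 9 elongation factor genes and 2 termination factor genes. They were chosen by name for their known roles, and the names were matched to the deposited counts through the annotation column of the authors' comparison tables. Of 6696 gene regions in the deposited files, the set therefore takes 37, and 36 of these could be measured. HYP2, which encodes the elongation and termination factor eIF5A, had a countable length of 0 and no read in any library, so no value is given for it.

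RNA sequencing was done on total RNA of W303 cells in 8 libraries, 2 replicates in each of 4 groups. The groups were grr1-deficient cells after 4 h of tunicamycin, grr1-deficient cells at 0 h, wild-type (WT) cells after 4 h of tunicamycin and WT cells at 0 h. GRR1 encodes a substrate receptor of an SCF ubiquitin ligase, and tunicamycin, used at 1 µg/ml, stops N-linked sugars from being made and so causes unfolded protein to build up in the endoplasmic reticulum. All cultures were grown in synthetic complete medium with 2% glucose at 30 °C. The sources used here do not say how GRR1 was inactivated or how many isolates of the strain were used. No culture kept for 4 h without the drug was analysed here, so hours of growth and tunicamycin cannot be told apart.

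Translation starts when the eIF4F complex binds the mRNA cap and recruits a small ribosomal subunit that carries eIF3, eIF1, eIF1A, eIF5 and eIF2 with the initiator tRNA. After each start, eIF2 must be reloaded with GTP by eIF2B, and this step is slowed when the kinase Gcn2 phosphorylates eIF2. Elongation factor eEF1A then delivers aminoacyl-tRNA, its partner eEF1B reloads it, eEF2 moves the ribosome along, and fungi also need the ATPase eEF3, while eRF1 and eRF3 end the chain at stop codons. In yeast the genes of this machinery are strongly transcribed in growing cells and are known to be lowered together with ribosomal protein genes under many stresses.

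The libraries held between 4885844 and 12380049 gene reads. GRR1 itself had 2 to 12 reads per library in grr1-deficient cells and 1179 to 1829 in WT. The grr1-deficient replicate 2 libraries stood apart. Genes annotated to the mitochondrial genome took 0.766% of gene reads in replicate 2 at 4 h and 0.386% at 0 h, against 13.4% and 10.8% in grr1-deficient replicate 1 and 1.72% to 5.03% in WT. COX1, a reading frame of that genome, had 0.158 and 2.99 CPM (read counts scaled to library size, with TMM factors) in grr1-deficient replicate 2 at 4 h and 0 h, and 2018 CPM or more in the other 6 libraries. Counts and the main single values that rest on the grr1-deficient cells are therefore also given without these libraries; the fit of UTR reads was not repeated without them. Among the 36 translation factor genes, the absolute log2 difference between replicates had a median of 0.17 in grr1-deficient cells at 4 h and 0.25 at 0 h, and of 0.08 in WT at 4 h and 0.10 at 0 h. At 0 h, 4 of the 36 were higher in grr1-deficient replicate 2 than in replicate 1. In bulk RNA, fewer cells of a type and less RNA per cell cannot be told apart.

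TIF1 and TIF2, TEF1 and TEF2, and EFT1 and EFT2 are nearly the same sequence within each pair, and the sequences are shown because they limit what the counts can say. The eIF4A genes TIF1 and TIF2 differ at 6 of 1188 coding bases, the eEF1A genes at 2 of 1377, and the eEF2 genes at 4 of 2529. In stretches of 60 coding bases from the R64 RefSeq genome, capitals mark the bases at which the members of a pair differ. The stretches lie at chrXI:555155-555214 (plus strand) for TIF1, chrX:154464-154523 (minus) for TIF2, chrXVI:701296-701355 (plus) for TEF1, chrII:478373-478432 (plus) for TEF2, chrXV:575485-575544 (plus) for EFT1 and chrIV:1243617-1243676 (plus) for EFT2.
TIF1: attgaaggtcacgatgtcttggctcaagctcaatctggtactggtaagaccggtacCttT
TIF2: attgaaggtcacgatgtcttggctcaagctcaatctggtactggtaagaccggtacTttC
TEF1: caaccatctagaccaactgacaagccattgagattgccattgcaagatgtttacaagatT
TEF2: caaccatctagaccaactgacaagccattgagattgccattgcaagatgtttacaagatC
EFT1: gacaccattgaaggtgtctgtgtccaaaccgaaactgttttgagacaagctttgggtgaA
EFT2: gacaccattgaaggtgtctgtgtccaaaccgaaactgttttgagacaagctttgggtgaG
Of all 100-base windows of TIF1, 74.1% occur unchanged in TIF2, and the shares are 86.5% for TEF1 in TEF2 and 83.5% for EFT1 in EFT2. Coding reads of TEF1 and TEF2 stood at a ratio of 0.946 to 0.998 in the 8 libraries, while their 5′ UTR reads, which cover different sequence, stood at 0.242 to 0.442. The sources used here do not say how the authors treated reads that fit several places. Values of these 6 genes are therefore those of the pair rather than of either copy, and the pairs held 71.4% to 75.5% of all translation factor reads. Counts of genes called, here and below, still enter both copies of each pair, so such copies are not separate measurements.

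The stretches before the start codons of most of these genes hold a run of letters known as the ribosomal RNA processing element (RRPE), a motif named for genes of ribosome synthesis. The letters AAAAATTT or their reverse complement AAATTTTT were searched on both strands in the 500 bases before each start codon. They were found for 26 of 37 translation factor genes (70.3%), against 20.5% of 5984 promoters of all genes, 26 of 52 other translation genes and 26.6% of 139 ribosomal protein genes. By role, 6 of 8 genes of eIF4F and its partners held them, 4 of 6 of eIF3, 6 of 7 of the factors that load and position the small subunit, 1 of 5 of eIF2B, 7 of 9 elongation factor genes and both termination factor genes. In the 26-base windows, from R64 and written in the direction of the gene, capitals mark the letters; 1 gene of each role is shown, the one with the largest WT fall among those that hold them, with YEF3 beside TEF4. They lie at chrXI:554794-554819 (TIF1, plus), chrXIII:895572-895597 (NIP1, minus), chrXVI:648485-648510 (TIF5, plus), chrXV:813845-813870 (GCD1, plus), chrXI:282742-282767 (TEF4, plus), chrXII:636583-636608 (YEF3, plus) and chrII:532335-532360 (SUP45, minus).
TIF1: tagtgactgAAAAATTTttgcattct
NIP1: tcgccgttgAAAAATTTttcaatgag
TIF5: taaatagtgAAAAATTTtcatcgcga
GCD1: cctatcgcaAAATTTTTcacttctca
TEF4: aattgaaagAAAAATTTttttcatca
YEF3: cgttggtgaAAATTTTTtcgcttcct
SUP45: ccctgaatgAAAAATTTtttcagaaa
The letters began 130 to 210 bases before the start codon in these 7 windows, and in 4 of them (TIF1, NIP1, TEF4 and SUP45) they run on into TT, so that both orientations overlap. The letters ACACCCA, a form of the Rap1 motif typical of ribosomal protein promoters, were found in 4 of the 37 (10.8%) and in 4.35% of all promoters. A second form, ACCCNNACA, was in 2 of the 37 (5.41%), 5.48% of all promoters and 38.8% of ribosomal protein promoters. GCGATGAG, searched as the PAC motif, was in 2 of the 37 (5.41%) and in 4.85% of all promoters. TGACTC, searched as a Gcn4 site, was in 2 of the 37 (5.41%) and in 12.7% of all promoters. CAGCGTG, the core of an unfolded protein response element bound by Hac1, was in none of the 37 windows and in 2.31% of all promoters. A match is a description of the letters, and no match says only that they are not in the window.

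Per kilobase of countable length, translation factor transcripts spanned a wide range of levels. In WT at 0 h the mean level ran from 27.4 CPM per kb for TIF4632, encoding the minor form of the eIF4G scaffold, through a median of 383 to 16980 CPM per kb for TEF2, encoding eEF1A. In grr1-deficient cells at 4 h the lowest, the median and the highest were 35.9 (GCD2), 108 and 5375 CPM per kb (TEF2), and at 0 h 30.9 (TIF4632), 209 and 9750 CPM per kb (TEF2). WT at 4 h spanned 33.2 (TIF4632) through 102 to 4164 CPM per kb (TEF2). TEF2 stands here for the eEF1A pair. Its reads were close to those of TEF1 (258939 and 257668 in WT 0 h replicate 1), and its countable length is shorter (1581 against 2036 bases). Levels of the eIF2B subunits lay within 3.15-fold of each other in grr1-deficient cells at 4 h and 2.63-fold at 0 h, and within 2.59-fold in WT at 4 h and 1.57-fold at 0 h. Elongation factor levels spanned 51.5-fold and 100.3-fold in grr1-deficient cells at 4 h and 0 h, and 84.8-fold and 97.1-fold in WT. Together the 36 genes took 3.49% and 3.41% of gene reads in grr1-deficient cells at 4 h and 6.37% and 6.13% at 0 h, against 3.17% and 2.98% in WT at 4 h and 8.93% and 8.52% at 0 h. The 4 groups did not overlap in this share. Ribosomal protein genes took 4.76% and 4.96% of gene reads in grr1-deficient cells at 4 h and 14.0% and 13.7% at 0 h, against 1.84% and 1.81% in WT at 4 h and 25.2% and 23.6% at 0 h.

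**Figure D1:**
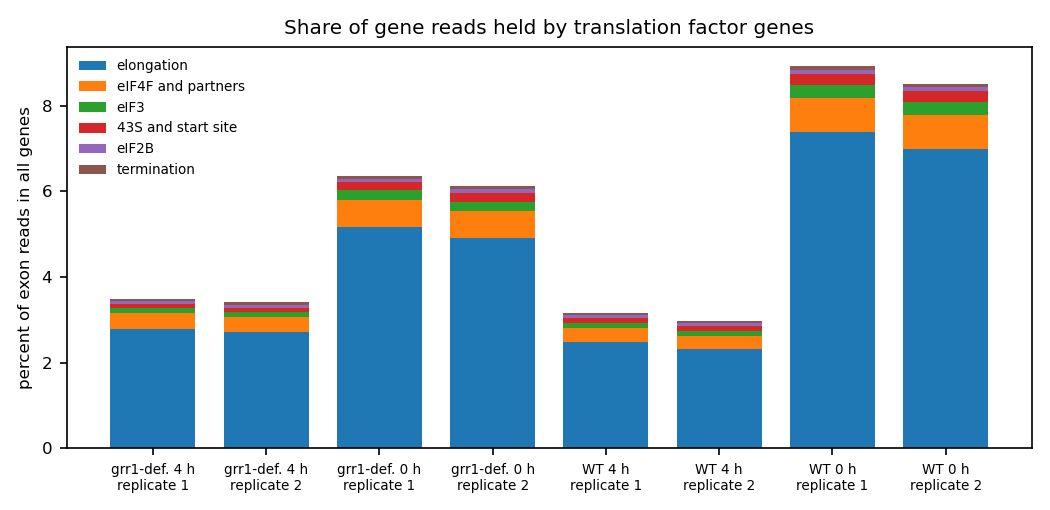
Percent of all gene reads (vertical axis) that fell on translation factor genes in each of the 8 libraries (horizontal axis), stacked by role. The bars reach 3.49% and 3.41% in grr1-deficient cells at 4 h, 6.37% and 6.13% at 0 h, 3.17% and 2.98% in WT at 4 h and 8.93% and 8.52% at 0 h, and elongation factors make up most of each bar.

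The plot of read shares shows that the total was set mainly by elongation factors, whose own share was 2.78% and 2.71% of gene reads in grr1-deficient cells at 4 h and 5.16% and 4.91% at 0 h, against 2.49% and 2.31% in WT at 4 h and 7.40% and 7.0% at 0 h.

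Translation factor transcripts were lowered at 4 h in both strains, and less so in grr1-deficient cells. In grr1-deficient cells at 4 h against 0 h, 27 of 36 fell and 1, TIF4632, rose (edgeR, threshold 0.05 on the adjusted p), where 24.5% of the 5855 genes tested were called lower and 21.5% higher. In WT, 35 of 36 fell and 0 rose, where 33.1% of all genes were called lower and 32.5% higher. At an unadjusted p under 0.05 the WT counts were also 35 lower and 0 higher, where 4047 of all 5855 genes passed in either direction. DESeq2 gave the same counts of 35 and 0. The median log2 fold change of the 36 was -0.91 in grr1-deficient cells and -2.003 in WT, against 0.04 and 0.03 over all genes. Without both grr1-deficient replicate 2 libraries, 31 fell and 1 rose in grr1-deficient cells, where 30.6% of all genes were called lower and 27.0% higher, and 35 fell and 1 rose in WT, where 40.1% and 39.8% were. Each grr1-deficient group then had 1 library, so the spread in that fit came from the WT libraries alone. With all libraries the median replicate difference was 0.17 and 0.25 in grr1-deficient cells at 4 h and 0 h, against 0.08 and 0.10 in WT. Counts and calls of that fit, here and below, therefore do not measure the spread between grr1-deficient libraries. The study calls the replicates biological without saying what was separate, so the p-values measure the spread between these libraries.

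The difference between the responses was tested as an interaction, the grr1-deficient response minus the WT response. By construction this is also the strain difference at 4 h minus that at 0 h, so these comparisons are not independent. Over the 36 genes the strain difference, grr1-deficient against WT, had a median of 0.25 at 4 h (10 called higher) and -0.82 at 0 h (33 called lower). The interaction was called higher than 0 for 33 of 36, where 19.9% of all genes were called, and lower for 0, where 17.4% were called (0 also at an unadjusted p under 0.05 and by DESeq2). The median difference was 0.91, against 0.03 over all genes. The count was 35 without both grr1-deficient replicate 2 libraries (25.9% of all genes higher and 22.8% lower), and 20 without WT 4 h replicate 1, without WT 4 h replicate 2 or without WT 0 h replicate 1. Calls of 16 genes were kept whichever of the 8 libraries was left out: TIF1, TIF3, TIF4631, PAB1, RPG1, NIP1, TIF11, GCD1, GCN3, TEF4, CAM1, EFB1, EFT1, EFT2, YEF3 and SUP45. TIF4632, HCR1 and GCD7 did not pass. Shares over all genes were not worked out for the fits without 1 library or for DESeq2. Across the 36 genes the responses of both strains, which share no library, had a Pearson r of 0.84 and a Spearman rho of 0.82, as a description over genes that are not independent of each other.

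Without both grr1-deficient replicate 2 libraries, the median change in grr1-deficient cells was -1.06 for eIF4F and its partners and -1.33 for eIF3. It was -1.20 for the factors that load the small subunit, -0.54 for eIF2B, -1.23 for elongation and -0.75 for termination. Single changes were then -1.36 for TIF1, -1.01 for TIF4631, 0.51 for TIF4632, -1.47 for NIP1 and -1.34 for TIF11. They were -0.90 for GCN3, -1.74 for TEF4, -1.28 for YEF3 and -1.18 for EFB1. DED1, SUP35, SUI1 and GCD1, which did not pass in grr1-deficient cells with all libraries, changed by -0.46, -0.55, -0.37 and -0.56. The differences between the responses were then 2.36 for TEF4, 2.16 for YEF3, 1.72 for PAB1, 1.36 for TIF4631, 1.19 for TIF1 and 1.14 for NIP1. They were smaller by over 1.5 times for TIF5 (0.45) and SUP35 (0.50). HCR1 and GCD7, which did not pass with all libraries, had differences of 0.50 and 0.74.

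**Figure D2:**
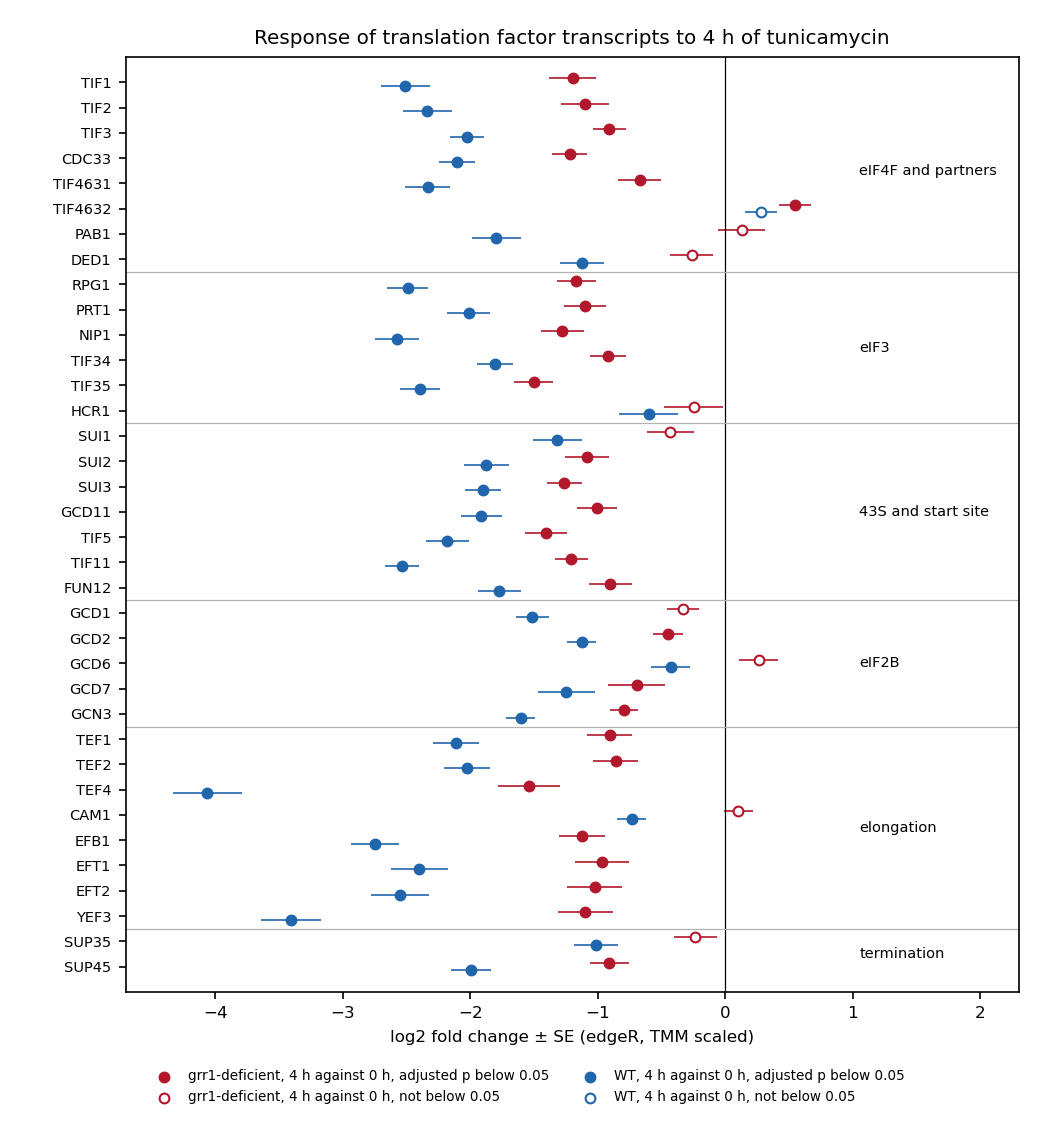
Log2 fold change at 4 h against 0 h with its standard error (horizontal axis) for 36 translation factor genes (vertical axis, grouped by role), with grr1-deficient cells in red and WT in blue; filled points have an adjusted p below 0.05. Every red point lies to the right of the blue point of the same gene, with the widest gaps at TEF4 (-1.54 against -4.06) and YEF3 (-1.10 against -3.41).

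As the plot of responses by gene shows, TIF4632 was the single gene above 0 in WT, and 8 genes have open red points because their change in grr1-deficient cells did not pass the test.

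How far these changes lie from 0 depends on the scaling. The share of ribosomal protein reads moved with the groups, and its part in the scaling was not tested. With total counts in place of TMM the median of all genes shifted to 0.10 in grr1-deficient cells, 0.78 in WT and -0.65 for the interaction. The split of all calls changed with it, to 1218 higher and 1216 lower in grr1-deficient cells (1259 and 1437 with TMM), 3340 and 957 in WT (1905 and 1936 with TMM) and 451 and 2486 for the interaction (1166 and 1016 with TMM). Relative to the median of all genes, the translation factor median with TMM was -0.95 in grr1-deficient cells, -2.04 in WT and 0.88 for the interaction, a distance that a change of scaling barely alters. In calls, total counts gave 1 higher and 25 lower in grr1-deficient cells (20.8% of all genes each way) and 1 higher and 30 lower in WT (57.0% of all genes higher and 16.3% lower). Total counts gave 12 higher for the interaction, where 7.70% of all genes were called higher and 42.5% lower: TIF1, TIF4631, PAB1, RPG1, NIP1, TIF11, GCD1, TEF4, EFB1, EFT1, EFT2 and YEF3. All 12 are among the 16 kept whichever library was left out.

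**Figure D3:**
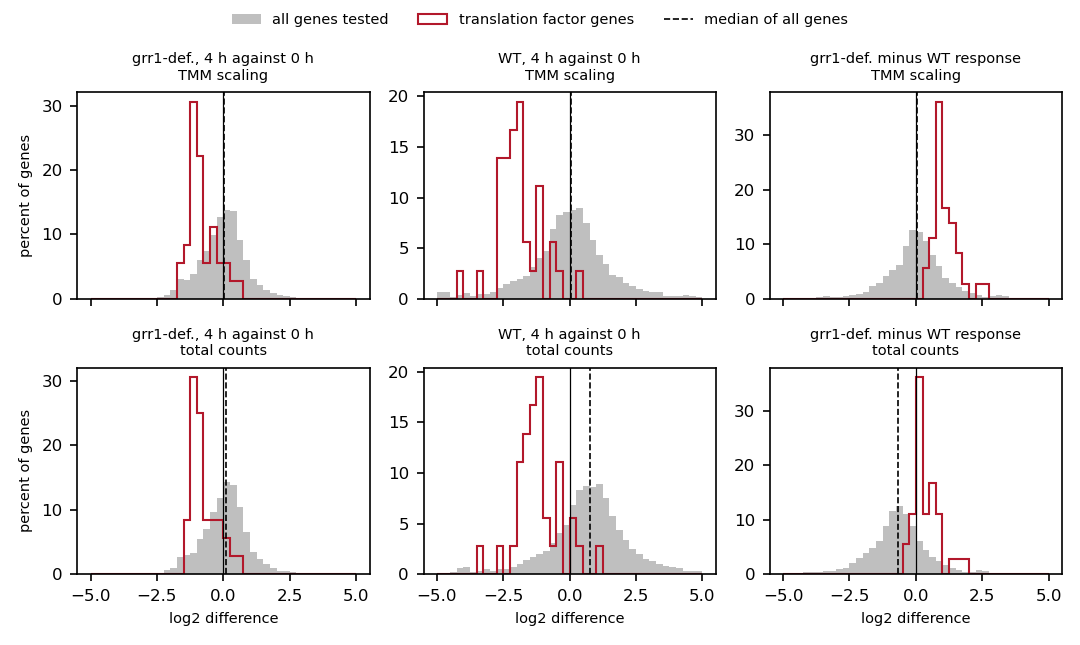
Distribution of log2 differences (horizontal axis) as percent of genes (vertical axis) for all 5855 genes tested (grey) and 36 translation factor genes (red outline), under TMM (top) and total counts (bottom), with the median of all genes dashed. The dashed line moves to 0.78 in WT and to -0.65 for the interaction under total counts, and the red outline moves with it.

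In the distributions a change of scaling moves translation factors and all genes together by construction, so the distance between them carries no test of the scaling. Changes given for single genes below are TMM values.

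UTR reads do not depend on the shared coding sequence, and 34 of the genes had enough of them for a fit of 4206 genes. In grr1-deficient cells 16 of the 34 fell (edgeR), where 14.1% of those 4206 genes were called lower and 10.3% higher, and in WT 28 fell, where 25.4% were called lower and 28.1% higher. The interaction was called higher for 10, where 9.70% of genes were called higher and 9.20% lower. Among the 12 called for the interaction with total counts, TIF1, NIP1, TIF11, GCD1 and YEF3 did not pass in UTR reads, and RPG1 was not fitted. In this fit grr1-deficient cells were lower than WT at 0 h for 17 genes, where 11% of genes were called lower and 14.9% higher, and higher at 4 h for 3, where 10.6% were called higher and 6.42% lower. TEF4 fell by 1.16 in grr1-deficient cells and by 3.27 in WT in these reads, a difference of 2.11 (edgeR adjusted p = 0.000576). YEF3 fell by 1.02 and 1.85, a difference of 0.84 that did not pass (edgeR adjusted p = 0.105).

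Of the 8 genes of eIF4F and its partners, 5 fell and 1 rose in grr1-deficient cells and 7 fell in WT, with median log2 changes of -0.79 and -2.07. For this and the other roles below, 24.5% of all genes were called lower and 21.5% higher in grr1-deficient cells. In WT the shares of all genes were 33.1% lower and 32.5% higher. TIF1 and TIF2 encode the same helicase, eIF4A, which unwinds mRNA near the cap. TIF1 had 949 and 933 CPM in grr1-deficient cells at 4 h and 2389 and 1928 CPM at 0 h, against 550.4 and 517 CPM in WT at 4 h and 3047 and 3030.5 CPM at 0 h. The groups did not overlap, and WT spanned the wider range. TIF1 fell by 1.20 ± 0.19 (log2, SE) in grr1-deficient cells (edgeR adjusted p = 0.00117) and by 2.51 ± 0.19 in WT (edgeR adjusted p = 7.95e-06), a difference of 1.31 ± 0.26 (edgeR adjusted p = 0.00564). Its copy TIF2 fell by 1.10 and 2.34 in grr1-deficient cells and WT. These exon values are those of the pair. In UTR reads TIF1 fell by 0.71 and 1.28 in the same order, a difference of 0.57 that did not pass (edgeR adjusted p = 0.19). TIF2 fell by 0.65 and 1.58 in UTR reads, a difference of 0.93 (edgeR adjusted p = 0.0498).

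TIF4631 (YGR162W, R64 chromosome VII, 824059 to 826917) and TIF4632 (YGL049C, chromosome VII, 406860 to 409604) encode the alternative eIF4G scaffolds, on which eIF4A, eIF4E and the poly(A)-binding protein assemble. TIF4631 had 151 and 202 CPM in grr1-deficient cells at 4 h and 299 and 263 CPM at 0 h, against 109.8 and 126 CPM in WT at 4 h and 621 and 567 CPM at 0 h. No groups overlapped. TIF4631 fell by 0.67 ± 0.17 in grr1-deficient cells (edgeR adjusted p = 0.0117) and by 2.33 ± 0.18 in WT (edgeR adjusted p = 6.72e-06). Without grr1-deficient 4 h replicate 1 the change in grr1-deficient cells was -0.48 with an edgeR adjusted p of 0.0511. TIF4632 went the other way: it had 127 and 145 CPM in grr1-deficient cells at 4 h and 87.6 and 99.0 CPM at 0 h, against 98.7 and 102 CPM in WT at 4 h and 86.5 and 78.7 CPM at 0 h. Its libraries of grr1-deficient cells at 4 h were above all others, and WT at 4 h overlapped grr1-deficient cells at 0 h. TIF4632 rose by 0.54 ± 0.13 in grr1-deficient cells (edgeR adjusted p = 0.0082) and had a change of 0.28 ± 0.13 in WT (edgeR adjusted p = 0.0802). The grr1-deficient rise was -0.021 in UTR reads (edgeR adjusted p = 0.961) and was not called in the authors' deposited table (0.54, adjusted p = 0.0682). With total counts the WT change was 1.02 and passed. The difference of 0.27 ± 0.18 did not pass and was -0.43 with total counts.

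PAB1 (YER165W, chromosome V, 510373 to 512106) encodes the poly(A)-binding protein. It had 481 and 467 CPM in grr1-deficient cells at 4 h and 511 and 356 CPM at 0 h, against 302.8 and 279 CPM in WT at 4 h and 962 and 1059.8 CPM at 0 h. The 4 h libraries of grr1-deficient cells lay between the 0 h libraries of the same strain, while WT at 4 h was below all other libraries and WT at 0 h above them. PAB1 fell by 1.80 ± 0.19 in WT (edgeR adjusted p = 5.62e-05), with a change of 0.13 ± 0.19 in grr1-deficient cells (edgeR adjusted p = 0.599) and a difference of 1.92 ± 0.27 (edgeR adjusted p = 0.00105). Its grr1-deficient change was -0.11 without both replicate 2 libraries. DED1, encoding a helicase that aids scanning, had 462 and 458 CPM in grr1-deficient cells at 4 h and 624 and 480.1 CPM at 0 h, against 491 and 488 CPM in WT at 4 h and 1138 and 998 CPM at 0 h. WT at 0 h stood above all other libraries. DED1 fell by 1.12 in WT and had a change of -0.26 in grr1-deficient cells (edgeR adjusted p = 0.235). CDC33, encoding the cap-binding protein eIF4E, fell by 1.22 in grr1-deficient cells and 2.11 in WT, and TIF3, encoding eIF4B, by 0.91 and 2.03.

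For eIF3, the multi-subunit scaffold on the small ribosomal subunit, 5 of 6 genes fell in grr1-deficient cells and 6 of 6 in WT, with medians of -1.13 and -2.20. NIP1 (YMR309C, chromosome XIII, 892988 to 895426) encodes subunit c. It had 295 and 289 CPM in grr1-deficient cells at 4 h and 803 and 613 CPM at 0 h, against 191 and 194 CPM in WT at 4 h and 1182 and 1111 CPM at 0 h. The 4 groups were apart from each other, with WT at both ends. NIP1 fell by 1.28 ± 0.17 in grr1-deficient cells (edgeR adjusted p = 0.000506) and by 2.57 ± 0.17 in WT (edgeR adjusted p = 3.81e-06), a difference of 1.29 ± 0.23 (edgeR adjusted p = 0.00356). RPG1, encoding subunit a, fell by 1.17 and 2.49 in the same order, PRT1, encoding subunit b, by 1.10 and 2.01, TIF34, encoding subunit i, by 0.92 and 1.81, and TIF35, encoding subunit g, by 1.50 and 2.40.

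HCR1, encoding the loosely bound subunit j, had the smallest changes of the eIF3 genes. It had 140.1 and 84.2 CPM in grr1-deficient cells at 4 h and 151 and 115 CPM at 0 h, against 149 and 145 CPM in WT at 4 h and 224 and 221 CPM at 0 h. The grr1-deficient libraries at 0 h overlapped those of both 4 h groups, both WT libraries at 4 h lay above the grr1-deficient ones at 4 h, and WT at 0 h was highest. HCR1 fell by 0.60 ± 0.23 in WT (edgeR adjusted p = 0.047), a call lost without any 1 of the 4 WT libraries (-0.65 to -0.58) and a direction that became 0.15 with total counts. Its change in grr1-deficient cells was -0.25 ± 0.23 (edgeR adjusted p = 0.404), and it was 0.055 without grr1-deficient 4 h replicate 2 and passed at -0.66 without 4 h replicate 1.

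Of the 7 genes for factors that load the small subunit and choose the start codon, 6 fell in grr1-deficient cells and 7 in WT, with medians of -1.08 and -1.90. TIF11 (YMR260C, chromosome XIII, 789378 to 789839) encodes eIF1A, which opens the small subunit for scanning. It had 120.4 and 139 CPM in grr1-deficient cells at 4 h and 299 CPM in both libraries at 0 h, against 107 and 113 CPM in WT at 4 h and 671 and 604 CPM at 0 h. The strains were close at 4 h and far apart at 0 h. TIF11 fell by 1.21 ± 0.13 in grr1-deficient cells (edgeR adjusted p = 0.000238) and by 2.53 ± 0.13 in WT (edgeR adjusted p = 1.15e-06), a difference of 1.33 ± 0.18 (edgeR adjusted p = 0.000977).

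The eIF2 subunits, which bring the initiator tRNA, had close values within each strain. SUI2 (alpha) fell by 1.08 in grr1-deficient cells and 1.87 in WT, SUI3 (beta) by 1.26 and 1.90, and GCD11 (gamma) by 1.01 and 1.91. TIF5, encoding the eIF2 GTPase-activating factor eIF5, fell by 1.40 and 2.18, and FUN12, encoding the subunit-joining factor eIF5B, by 0.90 and 1.77. SUI1, encoding eIF1, had 141 and 177 CPM in grr1-deficient cells at 4 h and 179 and 249 CPM at 0 h, against 129 and 153 CPM in WT at 4 h and 357 and 345 CPM at 0 h. Its 2 WT groups were far apart, and its grr1-deficient groups nearly touched. SUI1 fell by 1.32 ± 0.19 in WT (edgeR adjusted p = 0.000335), and its grr1-deficient change of -0.43 ± 0.19 did not pass (edgeR adjusted p = 0.092). That change was -0.62 without grr1-deficient 4 h replicate 2, -0.66 without 0 h replicate 1 and -0.37 without both replicate 2 libraries.

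The 5 subunits of eIF2B, the exchange factor that reloads eIF2, had the smallest median changes among the initiation groups, -0.45 in grr1-deficient cells, where 3 fell, and -1.25 in WT, where all 5 fell. Over all genes 24.5% were called lower in grr1-deficient cells and 33.1% in WT. GCD6 (YDR211W, chromosome IV, 884727 to 886865) encodes the catalytic epsilon subunit. It had 239 and 309 CPM in grr1-deficient cells at 4 h and 213 and 245 CPM at 0 h, against 228 and 249 CPM in WT at 4 h and 319 and 322 CPM at 0 h. The first 3 groups overlapped, and WT at 0 h was above them. GCD6 fell by 0.43 ± 0.15 in WT (edgeR adjusted p = 0.0363), a call lost without any 1 of the 4 WT libraries (-0.49 to -0.37) and a direction that became 0.32 with total counts. Its grr1-deficient change was 0.26 ± 0.15 (edgeR adjusted p = 0.194).

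GCN3 (YKR026C, chromosome XI, 488738 to 489655) encodes the regulatory alpha subunit, through which eIF2B senses phosphorylated eIF2. It had 89.7 and 96.0 CPM in grr1-deficient cells at 4 h and 164 and 157 CPM at 0 h, against 47.5 CPM in both WT libraries at 4 h and 149.6 and 139 CPM at 0 h. The strains were near each other at 0 h and clearly apart at 4 h. GCN3 fell by 0.79 ± 0.11 in grr1-deficient cells (edgeR adjusted p = 0.000705) and by 1.60 ± 0.11 in WT (edgeR adjusted p = 4.89e-06). GCD1, encoding the gamma subunit, fell by 1.51 in WT and changed by -0.33 in grr1-deficient cells (edgeR adjusted p = 0.0569). The grr1-deficient change of GCD1 was -0.47 without 4 h replicate 2, -0.42 without 0 h replicate 2 and -0.56 without both. GCD2 (delta) fell by 0.45 in grr1-deficient cells, a call lost with total counts, and by 1.13 in WT. GCD7 (beta) fell by 0.69 and 1.25, and its grr1-deficient call was lost without any 1 of 6 libraries, among them 4 h replicate 2 (-0.39) and 0 h replicate 1 (-0.56), and with total counts (-0.62). Its WT call was also lost with total counts (-0.50).

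Of the 8 measured elongation factor genes, 7 fell in grr1-deficient cells and 8 in WT, with medians of -0.99 and -2.48. The WT median was the lowest of the 6 roles, while in grr1-deficient cells those of eIF3 (-1.13) and of the factors that load the small subunit (-1.08) were lower. TEF4 (YKL081W, chromosome XI, 282891 to 284455) encodes a gamma subunit of eEF1B. It had 276 and 228 CPM in grr1-deficient cells at 4 h and 908 and 559.6 CPM at 0 h, against 87.5 and 70.3 CPM in WT at 4 h and 1345 and 1290.5 CPM at 0 h. All 4 groups were separate, and the 0 h libraries of grr1-deficient cells differed more from each other than those of WT. TEF4 fell by 1.54 ± 0.24 in grr1-deficient cells (edgeR adjusted p = 0.00128) and by 4.06 ± 0.27 in WT (edgeR adjusted p = 3.54e-06), a difference of 2.52 ± 0.34 (edgeR adjusted p = 0.000955). Its paralog CAM1 (YPL048W, chromosome XVI, 464401 to 465648), encoding the other gamma subunit, had 141 and 139 CPM in grr1-deficient cells at 4 h and 133 and 127 CPM at 0 h, against 147 and 135 CPM in WT at 4 h and 223 and 246 CPM at 0 h. The WT libraries at 0 h stood alone above the rest. CAM1 fell by 0.73 ± 0.11 in WT (edgeR adjusted p = 0.000516), a direction lost with total counts (0.013), and changed by 0.10 ± 0.11 in grr1-deficient cells (edgeR adjusted p = 0.488).

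YEF3 (YLR249W, chromosome XII, 636780 to 639914) encodes eEF3, the ATPase that clears spent tRNA from the ribosome. It had 2875 and 2551 CPM in grr1-deficient cells at 4 h and 6855 and 4756 CPM at 0 h, against 1268 and 1250.2 CPM in WT at 4 h and 13483 and 13262 CPM at 0 h. The 4 groups did not overlap, and both 4 h libraries of grr1-deficient cells were above those of WT. YEF3 fell by 1.10 ± 0.22 in grr1-deficient cells (edgeR adjusted p = 0.0038) and by 3.41 ± 0.23 in WT (edgeR adjusted p = 4.19e-06), a difference of 2.31 ± 0.31 (edgeR adjusted p = 0.000854). EFB1, encoding the catalytic subunit of eEF1B, had 609 and 553 CPM in grr1-deficient cells at 4 h and 1360.0 and 1175 CPM at 0 h, against 477 and 475 CPM in WT at 4 h and 3076 and 3316 CPM at 0 h. Again no groups overlapped. EFB1 fell by 1.12 ± 0.18 in grr1-deficient cells (edgeR adjusted p = 0.00132) and by 2.75 ± 0.19 in WT (edgeR adjusted p = 4.19e-06). Both eEF2 genes fell, with log2 changes of -0.97 (EFT1) and -1.02 (EFT2) in grr1-deficient cells and -2.40 and -2.55 in WT. Both eEF1A genes fell as well, with -0.91 (TEF1) and -0.86 (TEF2) in grr1-deficient cells and -2.11 and -2.03 in WT.

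For termination, SUP45, encoding the stop codon reader eRF1, fell by 0.91 ± 0.15 in grr1-deficient cells (edgeR adjusted p = 0.00162) and by 1.99 ± 0.16 in WT (edgeR adjusted p = 8.52e-06). SUP35 (YDR172W, chromosome IV, 808324 to 810381) encodes the GTPase eRF3, known also for its prion form. It had 221 and 273 CPM in grr1-deficient cells at 4 h and 317 and 264 CPM at 0 h, against 193 and 215 CPM in WT at 4 h and 454 and 369 CPM at 0 h. The grr1-deficient groups overlapped, and those of WT did not. SUP35 fell by 1.01 ± 0.17 in WT (edgeR adjusted p = 0.000836), a call lost with total counts, and changed by -0.24 ± 0.17 in grr1-deficient cells (edgeR adjusted p = 0.282).

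**Figure D4:**
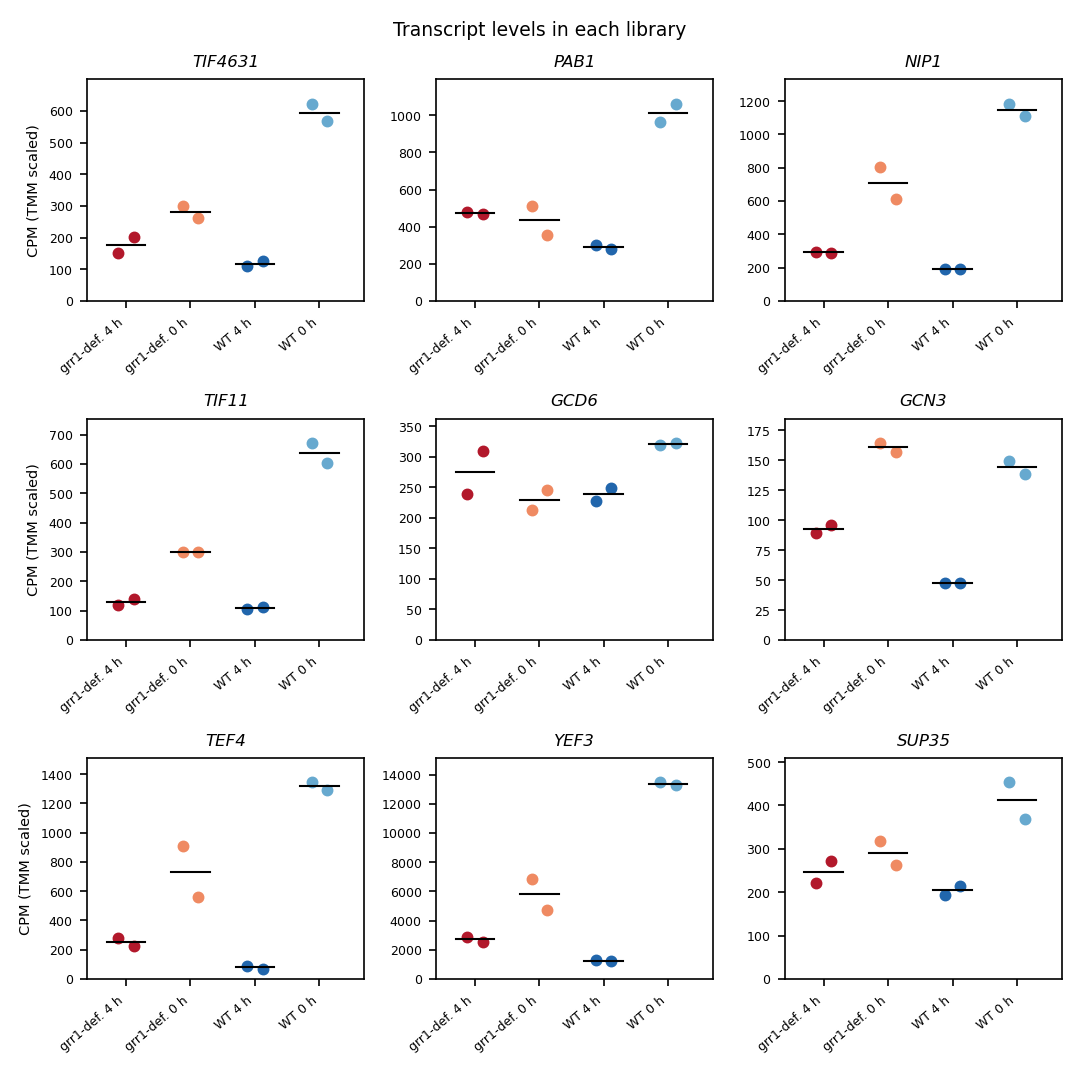
TMM scaled CPM (vertical axis, from 0) of 9 translation factor genes in the 2 libraries of each group (points) with their mean (bar). TEF4 and YEF3 are highest in WT at 0 h and lowest in WT at 4 h, PAB1 of grr1-deficient cells at 4 h lies between its 0 h libraries, and GCD6 of WT at 0 h (319 and 322) lies above the other libraries.

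The plot of levels by library shows that for TIF4631, NIP1, TIF11, TEF4 and YEF3 both grr1-deficient groups lay between the WT groups.

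Compared with WT at 0 h, grr1-deficient cells at 0 h already had lower translation factor transcripts. Of the 36, 33 were lower and 0 higher (edgeR), where 27.2% of all genes were called lower and 22.5% higher. The median was -0.82, against -0.06 over all genes. At an unadjusted p under 0.05 the counts were 34 lower and 0 higher, where 3305 of all 5855 genes passed in either direction. DESeq2 called 34 lower. EFB1 was lower by -1.33 ± 0.18 on the log2 scale (edgeR adjusted p = 0.000633), PAB1 by -1.22 ± 0.19 (edgeR adjusted p = 0.00119), YEF3 by -1.20 ± 0.22 (edgeR adjusted p = 0.00224) and TIF11 by -1.09 ± 0.13 (edgeR adjusted p = 0.00039). GCN3 had a difference of 0.16 ± 0.11 (edgeR adjusted p = 0.258), TIF4632 of 0.17 ± 0.13 (edgeR adjusted p = 0.276) and TIF1 of -0.49 ± 0.18 (edgeR adjusted p = 0.0528). Exon reads do not separate TIF1 from TIF2, which was called lower. In UTR reads at 0 h TIF1 had a difference of 0.36 (edgeR adjusted p = 0.208) and TIF2 of -1.02 (edgeR adjusted p = 0.00352). The count of lower genes was 34 without both grr1-deficient replicate 2 libraries (33.1% of all genes lower and 27.5% higher), 18 without WT 0 h replicate 1 and 18 with total counts, which called 2 higher, 11% of all genes lower and 36% higher. The split of all calls at 0 h was 1316 higher and 1595 lower with TMM, and 2106 and 646 with total counts. For the fits without 1 library and for DESeq2 no share over all genes was worked out. Calls of 18 genes were kept whichever library was left out, among them EFB1, PAB1, YEF3, TIF11, TIF4631 and CAM1.

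At 4 h, 10 of 36 were higher in grr1-deficient cells than in WT and 0 lower (edgeR), where 17.2% of all genes were called higher and 14.1% lower, and the median was 0.25, against -0.0025 over all genes. At an unadjusted p under 0.05, 12 of the 36 passed, a smaller share than the 2607 of all 5855 genes that did. DESeq2 called 11 higher and 0 lower. TEF4 was higher by 1.68 ± 0.25 (edgeR adjusted p = 0.00193) and GCN3 by 0.97 ± 0.11 (edgeR adjusted p = 0.000607), and the calls of these 2 genes were kept whichever library was left out. YEF3 was higher by 1.11 ± 0.22 (edgeR adjusted p = 0.00715) and TIF1 by 0.82 ± 0.18 (edgeR adjusted p = 0.013), and both calls were lost without either WT 4 h library, at 1.09 to 1.12 and 0.77 to 0.86. PAB1 (0.70), RPG1 (0.62), NIP1 (0.60), TIF2 (0.58), TIF4631 (0.58) and TIF4632 (0.44) lost theirs without at least 1 library. The count was 2 without either WT 4 h library, 4 without grr1-deficient 4 h replicate 2, 5 without either WT 0 h library and 15 without both grr1-deficient replicate 2 libraries (24.5% of all genes higher and 22.2% lower). No share over all genes was worked out for DESeq2 or the fits without 1 library, so those counts have no background beside them. With total counts 4 were higher (GCN3, TEF4, TIF1 and YEF3) and 3 lower, where 9.60% of all genes were called higher and 27.7% lower. The split of all calls was then 562 higher and 1620 lower, against 1008 and 828 with TMM. In UTR reads TIF1 was higher by 0.92 (edgeR adjusted p = 0.00658), while TIF2 had a difference of -0.089 (edgeR adjusted p = 0.824).

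Several of these factors have a diverged paralog, and most reads of such pairs can be told apart. Coding sequences of TIF4631 and TIF4632 are 60.0% identical, those of TEF4 and CAM1 69.6%, of DED1 and DBP1 66.5% and of YEF3 and HEF3 74.7%. None of these pairs shares a window of 50 bases. Reads from 25 nt were counted, and of 25-base windows 1.32% of TEF4 occur in CAM1 and 0.90% of YEF3 in HEF3. Whether YEF3, with far more reads, added to the HEF3 counts was not tested. A ratio within a library does not depend on the scaling between libraries. Reads of TEF4 over CAM1 stood at 1.96 and 1.64 in grr1-deficient cells at 4 h and 6.81 and 4.40 at 0 h, against 0.596 and 0.519 in WT at 4 h and 6.03 and 5.25 at 0 h. The paralog with more reads was therefore CAM1 in WT at 4 h and TEF4 in the other 6 libraries. TIF4631 over TIF4632 stood at 1.19 and 1.40 in grr1-deficient cells at 4 h and 3.41 and 2.66 at 0 h, against 1.11 and 1.24 in WT at 4 h and 7.18 and 7.21 at 0 h, so that the strains overlapped at 4 h and not at 0 h. In each of the 4 pairs the ratio was lower in every 4 h library than in every 0 h library of the same strain. An exact permutation test of time within strain (two-sided, 36 relabelings) gave p = 0.0556 for each, the smallest this design allows, and 0.0778 after Benjamini-Hochberg adjustment over 7 pairs, so no ratio could pass 0.05. These ratios describe unequal change of the paralogs in these libraries, without a passed test, and use the same reads as the fold changes.

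**Figure D5:**
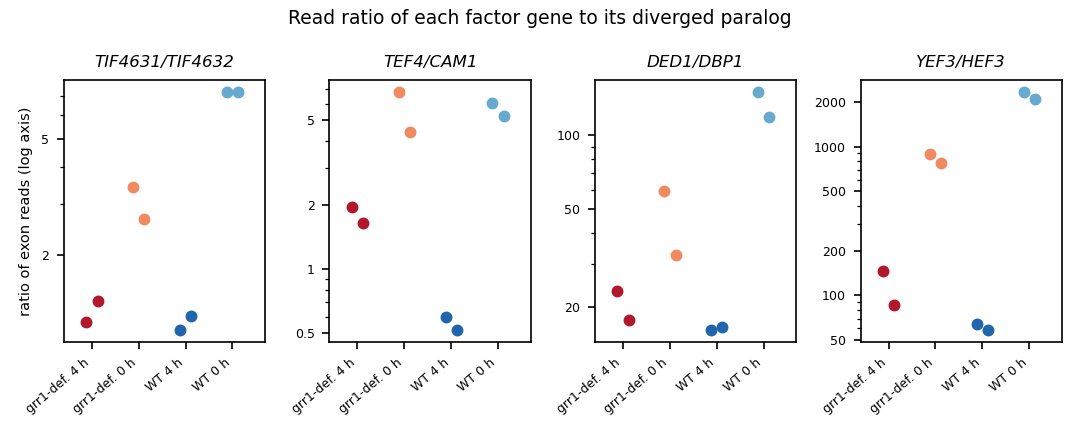
Ratio of exon reads of each factor gene to its diverged paralog (vertical log axis) in the 2 libraries of each group, for 4 pairs. Ratios at 4 h lie below those at 0 h in both strains, and TEF4 over CAM1 is below 1 (0.596 and 0.519) in WT at 4 h alone.

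The plot of paralog ratios also shows DED1 over DBP1 and YEF3 over HEF3, whose minor members rose. DBP1, encoding a helicase related to Ded1, had 19.9 and 25.9 CPM in grr1-deficient cells at 4 h and 10.5 and 14.8 CPM at 0 h, against 30.6 and 29.5 CPM in WT at 4 h and 7.56 and 8.39 CPM at 0 h. All 4 h libraries were above all 0 h libraries. DBP1 rose by 0.88 ± 0.22 in grr1-deficient cells (edgeR adjusted p = 0.0109) and by 1.91 ± 0.22 in WT (edgeR adjusted p = 8.2e-05), a difference of -1.03 ± 0.31 (edgeR adjusted p = 0.0291). HEF3, encoding a second eEF3, had 19.6 and 29.4 CPM in grr1-deficient cells at 4 h and 7.68 and 6.16 CPM at 0 h, against 19.7 and 21.3 CPM in WT at 4 h and 5.78 and 6.35 CPM at 0 h. It was higher at 4 h in both strains, by 1.82 ± 0.25 in grr1-deficient cells (edgeR adjusted p = 0.000642) and 1.76 ± 0.24 in WT (edgeR adjusted p = 0.000274). YEF3 kept most reads of the pair, at 86.8 times those of HEF3 or more in grr1-deficient cells and 58.6 times or more in WT. ANB1, the eIF5A gene of low oxygen and paralog of HYP2, lay between 0.991 and 5.34 CPM in the 8 libraries.

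Other genes of the translation pathway were read out from a list of 52 names, of which 51 were tested. Of these, 4 rose and 24 fell in grr1-deficient cells, with a median of -0.54, where 21.5% of all genes were called higher and 24.5% lower, and 4 rose and 39 fell in WT, with a median of -1.59, where the shares were 32.5% and 33.1%. The interaction was called higher for 30 and lower for 1, DBP1, with a median of 0.92, where the shares were 19.9% and 17.4%. With total counts 4 rose and 22 fell in grr1-deficient cells (all genes 20.8% each way), 9 and 28 in WT (57.0% and 16.3%), and 10 and 3 were called for the interaction (7.70% and 42.5%). Without both grr1-deficient replicate 2 libraries these counts were 5 and 28, 5 and 42, and 33 and 1. STM1, encoding a protein that preserves idle ribosomes, fell by 4.20 in WT and had the largest interaction of the list, 2.86 (edgeR adjusted p = 0.000577). SSB1 and SSB2, encoding ribosome-bound Hsp70 chaperones of similar sequence whose reads may be split between them, fell by 3.92 and 3.34 in WT, and SSB1 by 1.51 in grr1-deficient cells, where EFM4, encoding a methyltransferase of eEF1A, fell by 1.60 and CLU1, encoding an eIF3-associated protein, by 1.43. NEW1, encoding an ATPase related to eEF3, had an interaction of 2.01 (edgeR adjusted p = 0.00093). TMA64, encoding a ribosome recycling factor, rose by 1.21 in grr1-deficient cells and 1.03 in WT. Ribosomal protein genes, 137 of 139 names tested (a list matched by name that takes in RPP1, of RNase P), all fell in both strains, with medians of -1.60 in grr1-deficient cells and -4.60 in WT, and 136 had a higher interaction, with a median of 3.02. The difference between that list and the translation factors was not tested.

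The authors' deposited tables of 4 h against 0 h gave nearly the same fold changes. In the authors' deposited table for grr1-deficient cells 25 of 36 translation factor genes were lower and 0 higher at their adjusted p below 0.05, where 18.4% of genes were lower and 13.3% higher. In the authors' deposited table for WT 35 were lower and 0 higher, where 37.5% of genes were lower and 36.4% higher. Signs of all 36 were the same as in the fit made here in both comparisons, and the log2 values in the authors' deposited tables differed from it by at most 0.0059 in grr1-deficient cells and 0.015 in WT.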

How the data were processed

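Gene expression was measured by RNA sequencing of total RNA in 8 libraries. RNA came from clarified lysates made for ribosome profiling, per the labels' protocols. Per the submitters' processing notes the build was R64 and the tools were STAR 2.7.3a, Bowtie2 2.3.5, cutadapt 2.6 and DESeq2, with no roles given. The deposited values are raw read counts per gene region for exon, 5′ UTR, coding and 3′ UTR positions, made by plastid, which, per the file headers, assigned each read of 25 to 100 nt at an offset of 25 nt. The authors' program also deposited RPKM values, not used here, and countable lengths, used for levels per kb. The authors' tables hold log2 fold changes, their standard errors (entered as a score), and p-values raw and adjusted, and served only for comparison. The sources used here do not describe strand or multiple mapping.

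The test on exon counts was that of edgeR 4.0.16 (R 4.3.3): quasi-likelihood, robust, TMM, default expression filter (5855 genes, 36 of the 37 members), 1 coefficient per group over all 8 libraries, two-sided, Benjamini-Hochberg over all genes tested, threshold 0.05, prior count 0.125. The 5 comparisons were 4 h against 0 h in each strain, their interaction, and grr1-deficient against WT at each time. CPM is TMM scaled. The script was tested on simulated data. A count of 0 allows up to 3 reads, or 0.242 to 0.614 CPM by library, for counting error only, since reads carry no molecular identifiers. Replicates differed by more than sampling noise, so each library counts once. Replicate numbers 1 and 2 recur in each group. The labels list the 4 h and 0 h libraries by number without saying that a number marks a shared batch. Replicate differences correlated at 0.464 between the grr1-deficient groups, whose replicate 2 libraries both had few mitochondrial genome reads. Between other groups they correlated at -0.076 to 0.145. The main fit used no block, so a pairing within grr1-deficient cells was not modelled. Alternatives were total counts, RLE factors, DESeq2 1.42.0, no low-count filter, a replicate block, coding or UTR reads, leaving out mitochondrial genes, and leaving out libraries. Sequences were read from the R64 RefSeq genome with python 3.11.15. Paralog read ratios were tested by exact permutation of time, or strain, within the other.

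Members, lists and tests were chosen with earlier results of these data known. All members and their paralogs could be named, and from each other list the 3 largest rises and 3 largest falls past the threshold in either response or the interaction. COX1 was a listed marker, and GUF1 was named outside this rule, after its values were seen.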

Additional observations from a re-analysis of the deposited data

Results flagged for a closer look

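The response to tunicamycin differed between the strains, by the interaction term of the edgeR fit at an adjusted p below 0.05, for 33 of the 36 translation factor genes, and each value is a log2 difference, grr1-deficient response minus WT response. Among eIF4F and its partners the differences were 1.31 for TIF1, 1.24 for TIF2, 1.12 for TIF3, 0.88 for CDC33, 1.66 for TIF4631, 1.92 for PAB1 and 0.86 for DED1. Among eIF3 subunits they were 1.32 for RPG1, 0.91 for PRT1, 1.29 for NIP1, 0.89 for TIF34 and 0.89 for TIF35. Among the factors that load the small subunit they were 0.89 for SUI1, 0.79 for SUI2, 0.64 for SUI3, 0.90 for GCD11, 0.78 for TIF5, 1.33 for TIF11 and 0.87 for FUN12. For eIF2B they were 1.18 for GCD1, 0.68 for GCD2, 0.69 for GCD6 and 0.81 for GCN3. Elongation factors had 1.20 for TEF1, 1.17 for TEF2, 2.52 for TEF4, 0.83 for CAM1, 1.62 for EFB1, 1.43 for EFT1, 1.53 for EFT2 and 2.31 for YEF3, and termination factors 0.78 for SUP35 and 1.08 for SUP45. The calls of 17 of these, each with a difference of 1.24 or less, were lost without at least 1 of the 8 libraries, and those of 21 with total counts in place of TMM, which turned GCD6, GCD2 and SUI3 below 0.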

How the results depend on the processing

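Counts of translation factor genes called lower in WT were 33 to 35 without each library in turn, 30 with total counts, 33 without mitochondrial genome genes and 28 of 34 with UTR reads. None was called higher in WT, except 1 (TIF4632) with total counts, without mitochondrial genome genes and without both grr1-deficient replicate 2 libraries. Without each library in turn, the other counts ran from 26 to 29 lower in grr1-deficient cells, 20 to 32 higher for the interaction, 18 to 34 lower at 0 h, and 2 to 15 higher and 0 to 2 lower at 4 h. Total counts gave 12 higher for the interaction, 2 higher and 18 lower at 0 h, and 4 higher and 3 lower at 4 h. Shares over all genes were worked out for the main fit, total counts, UTR reads and the fit without both grr1-deficient replicate 2 libraries. The other fits made here have none. UTR reads, which are few for many genes, gave 0 higher and 16 lower in grr1-deficient cells, 10 higher for the interaction, 17 lower at 0 h and 3 higher at 4 h; the cause was not tested.

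The share of gene reads, 3.45%, 6.25%, 3.08% and 8.72% in the means of grr1-deficient cells at 4 h and 0 h and WT at 4 h and 0 h, was 3.60%, 6.60%, 3.27% and 9.15% with coding reads. It was 3.73%, 6.64% and 3.23% in the first 3 groups without mitochondrial genes in the total. It was 2.20%, 4.01%, 1.95% and 5.76% with each near-identical pair counted once, a choice made after seeing the data.

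Directions that turned with total counts were GCD6 (0.32), HCR1 (0.15) and CAM1 (0.013) in WT, and GCD6 (-0.016), TIF4632 (-0.43), GCD2 (-0.0076), HCR1 (-0.32), GCD7 (-0.12) and SUI3 (-0.041) for the interaction, with the median at 4 h at -0.027. With UTR reads they were TIF4632 (-0.22) in WT, GCD6 (-0.16), TIF4632 (-0.021), HCR1 (0.039), GCD7 (0.24), SUI1 (0.70) and DED1 (0.17) in grr1-deficient cells, GCD1 (-0.035) and PRT1 (-1.12) for the interaction, TIF1 (0.36) at 0 h and TIF2 (-0.089) at 4 h. PAB1 in grr1-deficient cells was -0.11 without both replicate 2 libraries, and -0.11 to 0.40 without each library in turn. HCR1 ran from -0.66 to 0.055 in grr1-deficient cells and from -0.060 to 0.69 for the interaction. No value that turned sign passed the test.

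With the replicate number as a block, 35 were lower in WT, 1 higher and 28 lower in grr1-deficient cells, 33 higher for the interaction, 33 lower at 0 h and 10 higher at 4 h. The block was 1 effect common to both strains, so it does not model a pairing within grr1-deficient cells alone. With 2 libraries a group, differences below the spread between replicates were not detectable.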

Other observations

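Translation factors of mitochondria, which serve a separate ribosome, were higher in grr1-deficient cells at 0 h, where cytosolic factors were lower; the difference between the lists was not tested. Of 9 such genes, 7 were higher in grr1-deficient cells than in WT at 0 h (edgeR), where 22.5% of all genes were called higher, with a median log2 difference of 1.53, and 2 were higher at 4 h, where 17.2% of all genes were. In grr1-deficient cells 7 of 9 fell at 4 h against 0 h, with a median of -1.21, where 24.5% of all genes were called lower. In WT 1 rose and 2 fell, with a median of -0.24, shares no larger than the 32.5% and 33.1% of all genes. GUF1, encoding a mitochondrial elongation factor of the LepA family, had 32.7 and 35.7 CPM in grr1-deficient cells at 4 h and 78.4 and 79.5 CPM at 0 h, against 24.1 CPM in both WT libraries at 4 h and 23.7 and 20.8 CPM at 0 h. Its grr1-deficient libraries were above all WT libraries at both times. MEF1, encoding a mitochondrial elongation factor G, was higher by 1.98 ± 0.35 at 0 h (edgeR adjusted p = 0.00376), GUF1 by 1.83 ± 0.13 (edgeR adjusted p = 5.07e-05) and RRF1, encoding the mitochondrial ribosome recycling factor, by 1.67 ± 0.21 (edgeR adjusted p = 0.00052). Without both grr1-deficient replicate 2 libraries, the libraries with few mitochondrial genome reads, 8 of 9 were higher at 0 h (27.5% of all genes) and the median was 1.40. With total counts 8 were higher (36% of all genes).

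The eIF4A pair was also compared by the reads in its 5′ UTRs. Reads in the 5′ UTR of TIF1 over those of TIF2 stood at 0.234 and 0.444 in grr1-deficient cells at 4 h and 0.252 and 0.341 at 0 h, against 0.157 and 0.143 in WT at 4 h and 0.0578 and 0.0673 at 0 h. Every grr1-deficient library was above every WT library. An exact permutation test of strain within time (two-sided, 36 relabelings) gave p = 0.0556, the smallest this design allows, and 0.194 after adjustment over 7 pairs, so the difference did not pass. TIF1 had between 90 and 221 such reads per library. The eEF2 pair was also separated by strain, the other way round: UTR reads of EFT1 over EFT2 stood at 0.380 to 0.435 in grr1-deficient cells and 0.587 to 1.07 in WT, with the same p of 0.0556 and 0.194 after adjustment (exact permutation test). EFT1 has no countable 5′ UTR, so this ratio sets its 3′ UTR reads against mostly 5′ UTR reads of EFT2.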
